A study of Homo sapiens with 12 samples.

Results

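The inhibitor of apoptosis (IAP) genes and the genes of the proteins that antagonise them were described in human lens epithelial cells as 7 genes, taken by name from the deposited tables: XIAP, BIRC2, BIRC3 and BIRC6 on the side of the inhibitors, and DIABLO, HTRA2 and XAF1 on the side of the antagonists. They filled 8 of 58735 gene rows, because DIABLO has a pair of gene models. The cells were HLE-B3, an immortalized line of human lens epithelium. Their RNA was read by RNA-seq in 12 libraries, with 3 biological replicates in each of 4 groups. WT_0h held wild type cells that were not treated, and WT_12h held wild type cells after 12 h in 200 μM H2O2. Atg7KO_0h and Atg7KO_12h held cells labelled Atg7KO, without treatment and after the same 12 h in 200 μM H2O2. ATG7 encodes an enzyme needed to build autophagosomes, and per the study's methods the knockout was made with CRISPR/Cas9 in individually picked clones. The labels do not say which clone, or how many, was sequenced, so loss of ATG7 and a difference between clones cannot be told apart. Untreated cells carry the time 0 h, so H2O2 and 12 h more in culture cannot be told apart either. The cultures are bulk samples, in which fewer cells of one kind and less RNA per cell cannot be told apart.

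IAP proteins carry zinc-binding BIR domains, and several add a RING domain with which they attach ubiquitin to themselves and to others. XIAP binds and blocks caspases, caspase-9 among them. cIAP1 (gene BIRC2) and cIAP2 (gene BIRC3) are recruited by TRAF2 to tumour necrosis factor receptors, where they ubiquitinate RIPK1 and feed canonical NF-kB signalling, and in resting cells they mark the kinase NIK (gene MAP3K14) for destruction. BIRC6 is a very large ubiquitin-conjugating enzyme that also acts on caspases. When mitochondria become permeable they release Smac (gene DIABLO) and the serine protease Omi (gene HTRA2), whose exposed N termini occupy the BIR grooves, while XAF1 is an interferon-inducible protein that binds XIAP. In the lens, loss of epithelial cells by apoptosis is one of the events studied in cataract.

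XIAP lies at chrX:123859724-123913979, BIRC3 at chr11:102317450-102339403 and BIRC2 at chr11:102347211-102378670, all on the plus strand of GRCh38. BIRC3 and BIRC2 are head-to-tail neighbours, with 7808 bases between the end of BIRC3 and the start of BIRC2. The promoters of these 3 genes are shown because XIAP moved opposite to BIRC2, and BIRC3 stands beside BIRC2 on the chromosome. Each window is the RefSeq sequence of GRCh38.p14, plus strand, with 250 bases before and 50 bases after the transcription start. The windows are chrX:123859458-123859757 for XIAP, chr11:102346964-102347263 for BIRC2 and chr11:102317234-102317533 for BIRC3. Capitals mark the GC box in XIAP, the cAMP response element in BIRC2 and the NF-kB matches in BIRC3.
XIAP: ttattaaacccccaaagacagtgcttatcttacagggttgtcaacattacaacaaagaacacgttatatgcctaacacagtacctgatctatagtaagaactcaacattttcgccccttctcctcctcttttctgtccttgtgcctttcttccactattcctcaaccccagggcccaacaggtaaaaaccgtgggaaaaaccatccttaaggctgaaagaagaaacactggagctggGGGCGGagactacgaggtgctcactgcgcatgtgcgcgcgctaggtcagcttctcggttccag
BIRC2: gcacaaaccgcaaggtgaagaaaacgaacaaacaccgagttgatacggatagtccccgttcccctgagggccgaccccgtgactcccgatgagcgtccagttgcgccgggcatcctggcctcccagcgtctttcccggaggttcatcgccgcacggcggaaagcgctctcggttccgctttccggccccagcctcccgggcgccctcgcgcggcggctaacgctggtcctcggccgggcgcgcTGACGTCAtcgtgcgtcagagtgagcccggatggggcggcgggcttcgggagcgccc
BIRC3: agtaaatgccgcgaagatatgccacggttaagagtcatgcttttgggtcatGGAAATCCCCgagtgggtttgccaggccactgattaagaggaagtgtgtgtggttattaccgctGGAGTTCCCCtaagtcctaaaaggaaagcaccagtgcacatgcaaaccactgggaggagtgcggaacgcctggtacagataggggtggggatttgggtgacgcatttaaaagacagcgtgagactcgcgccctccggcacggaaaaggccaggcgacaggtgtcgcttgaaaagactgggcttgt

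The BIRC3 window held 2 matches to the NF-kB consensus, both read on the minus strand, beginning 199 and 135 bases before the start. Of 35116 promoter windows of the same length, 11.3% held at least 1 such match. The BIRC2 window held no NF-kB match and 1 cAMP response element (TGACGTCA), which 1.85% of windows hold, and 1 GC box (GGGCGG). The XIAP window held 1 GC box, a motif found in 45.0% of windows, and 1 antioxidant response core (TGACNNNGC, on the minus strand), found in 13.3%. Among the other members, BIRC6 held 1 NF-kB match, and DIABLO, HTRA2 and XAF1 held none. None of the 7 windows held AP-1 (TGANTCA, 7.71% of windows), the heat shock element core (GAANNTTC, 6.77%), the interferon-stimulated response element (3.57%) or the TATA box (TATAAA, 11.5%). In all, 8 motifs were searched on both strands, in 1 window per member, the one nearest its annotated gene start. DIABLO has 4 windows, XIAP 3, BIRC3 1 and each other member 2, so an absence holds for the window used only. A match is a run of letters in this window and shows neither binding nor the lack of it.

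Library totals lay between 15602183 and 17659496 reads on genes. Atg7KO_0h replicate 1 stood apart: its log2 levels had a mean correlation of 0.974 with the other libraries of its group, against 0.983 for each of those and about 0.991 in the other 3 groups, and its deviation fell by 0.125 on the log2 scale per doubling of gene length. Tested values, ratios and list counts that rest on Atg7KO_0h are therefore also given without it. Counts over the whole ATG7 gene do not check the knockout, because a small edit need not lower the transcript: its mean FPKM (fragments scaled by gene length and library size) was 2.55 ± 0.313 in WT_0h, 1.96 ± 0.0411 in WT_12h, 3.55 ± 0.205 in Atg7KO_0h and 2.19 ± 0.137 in Atg7KO_12h (SD, n = 3). The groups are accordingly called by their labels. Of 8 lens epithelial markers, FOXE3, PROX1, MAF and CRYAA were too low to be tested and GJA1 was the highest, and of 5 fibroblast markers only DCN averaged 1 FPKM or less. The summed FPKM of the fibroblast list was 649 to 682 in WT_0h, 291 to 309 in WT_12h, 373 to 527 in Atg7KO_0h and 258 to 267 in Atg7KO_12h. The sum was lower after treatment and lower in the libraries labelled Atg7KO at both times. COL1A1 made up most of it, at means of 626, 272, 437 and 243 FPKM. Of the 4 fibroblast genes tested between Atg7KO_12h and WT_12h, 1 was higher and 2 lower, beside 27.7% and 27.9% of all genes. Between Atg7KO_0h and WT_0h 0 of 4 were called, beside 7.7%. Without Atg7KO_0h replicate 1, 1 was higher and 3 lower there, beside 36.2% called. The summed FPKM of the lens epithelial list was 29.97 to 30.96, 46.9 to 50.7, 26.2 to 27.8 and 53.3 to 56.0 in the same order of groups. The sum was higher after treatment in both genotypes. The genotypes did not overlap at either time, the libraries labelled Atg7KO lying lower at 0 h and higher at 12 h. GJA1 made up most of it, at means of 26.1, 43.5, 23.9 and 50.5 FPKM, while 6 of the 8 genes averaged 1 FPKM or less. The PAX6 means were lower after treatment, at 1.27, 0.776, 1.02 and 0.560 FPKM. Of the 4 lens epithelial genes tested, 2 rose and 1 fell in WT, beside 61.0% of all genes called. In cells labelled Atg7KO 2 rose and 0 fell, beside 26.0%, or 2 and 1 without Atg7KO_0h replicate 1, beside 58.4%. The part of these 2 lists in the results below was not tested. The leukocyte and lens fibre lists each summed to 2.62 FPKM or less in every library, and all 4 vascular endothelial markers averaged 1 FPKM or less.

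Per length of transcript, BIRC2 was the most abundant member in all 4 groups. In WT_0h its mean was 57.5 ± 2.0 FPKM (SD, n = 3), followed by BIRC3 at 16.1 ± 0.862, XIAP at 9.99 ± 0.377, BIRC6 at 7.65 ± 0.134 and HTRA2 at 5.41 ± 0.502. No neighbours in that order overlapped between libraries. In Atg7KO_12h the order of the upper members was BIRC2 at 27.9 ± 0.359, XIAP at 17.2 ± 0.763 and BIRC3 at 11.1 ± 0.268 FPKM, again without overlap, so that XIAP stood above BIRC3. In WT_12h the ranges of BIRC3 and XIAP overlapped, as did those of HTRA2 and BIRC6, and in Atg7KO_0h XIAP, BIRC3, HTRA2 and BIRC6 each overlapped the next. The ratio of XIAP to BIRC2 in FPKM was 0.174 ± 0.00955 in WT_0h, 0.281 ± 0.0290 in WT_12h, 0.245 ± 0.0449 in Atg7KO_0h and 0.617 ± 0.0335 in Atg7KO_12h. The ratio of this direct caspase blocker to cIAP1 was thus lowest in WT_0h and highest in Atg7KO_12h, whose libraries all lay above those of the other groups. The ratio of BIRC2 to BIRC3 was 3.57 ± 0.0818, 3.45 ± 0.152, 4.44 ± 1.18 and 2.52 ± 0.0648 in the same order of groups, and the ratio of XIAP to HTRA2 was 1.86 ± 0.233, 2.03 ± 0.243, 1.47 ± 0.386 and 2.14 ± 0.103. The Atg7KO_0h means without its replicate 1 were 0.271 for XIAP to BIRC2, 3.76 for BIRC2 to BIRC3 and 1.70 for XIAP to HTRA2 (n = 2).

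**Figure D1:**
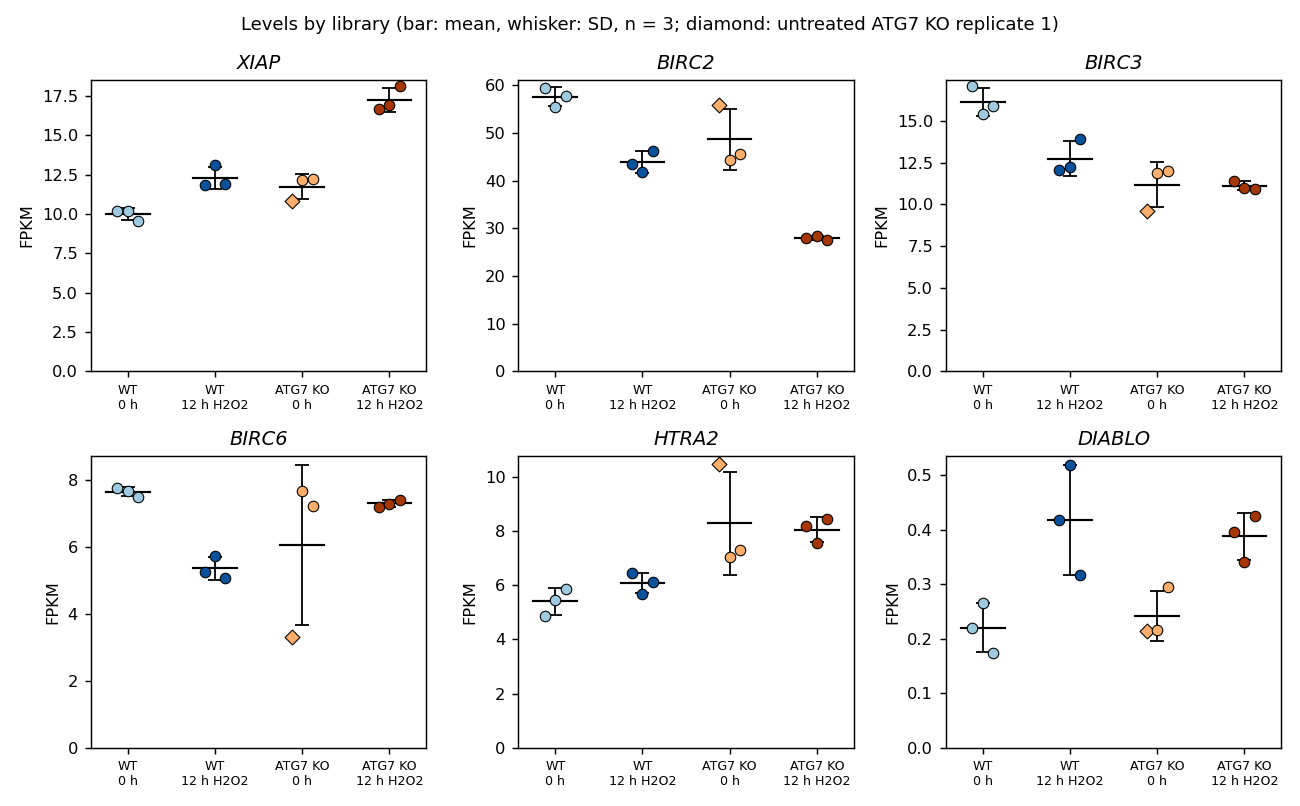
FPKM (y axis, from 0) of the 6 members with tested counts in each of the 12 libraries, by group (x axis), with the group mean as a bar and the SD as a whisker. The means of BIRC2 are 57.5 FPKM in WT_0h and 27.9 FPKM in Atg7KO_12h, those of XIAP 9.99 and 17.2 FPKM, and Atg7KO_0h replicate 1 (diamond) is far from its group in BIRC6 and HTRA2.

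The comparison between the genotypes under H2O2 asks how the IAP transcripts stood after oxidative stress in cells labelled as lacking ATG7, beside wild type cells. XIAP, BIRC6 and HTRA2 were higher and BIRC2 and BIRC3 were lower in Atg7KO_12h than in WT_12h, by 1.40-fold at most for those that were higher. XIAP measured 11.8, 13.1 and 11.9 FPKM in WT_12h and 16.7, 16.9 and 18.1 FPKM in Atg7KO_12h. Every Atg7KO_12h library lay above every WT_12h library. Here and below, overlap between groups was counted for the members only, so its share over all genes is not known. The fold was 1.40 (log2 0.48 ± 0.05 SE, adjusted p = 7.4e-11, edgeR's quasi-likelihood test, adjusted over 15909 genes by Benjamini and Hochberg's method).

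BIRC2 measured 43.5, 41.8 and 46.3 FPKM in WT_12h and 27.9, 28.3 and 27.6 FPKM in Atg7KO_12h, with no overlap. It had the largest change of the 6 tested members in this comparison, 0.633 times the WT_12h level (log2 -0.66 ± 0.04, adjusted p = 7.7e-15, same test). BIRC3, which encodes the closely related cIAP2, measured 12.0, 12.3 and 13.9 FPKM in WT_12h and 11.4, 11 and 10.9 FPKM in Atg7KO_12h. The groups did not overlap, but by a narrow margin, and the change was 0.866 times (log2 -0.21 ± 0.05, adjusted p = 8.7e-04). It lost its call without WT_12h replicate 3 (adjusted p = 0.011) and without Atg7KO_12h replicate 3 (adjusted p = 0.012), and in limma on the FPKM values (adjusted p = 0.023 and 0.025).

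BIRC6 measured 5.26, 5.74 and 5.09 FPKM in WT_12h and 7.21, 7.29 and 7.42 FPKM in Atg7KO_12h, so that all treated libraries labelled Atg7KO lay higher. The difference was 1.36-fold (log2 0.44 ± 0.05, adjusted p = 6.8e-10). BIRC6 has 17858 exonic bases, against a median of 4561 over the tested genes, and over all genes the log2 change rose by 0.0912 per doubling of gene length in this comparison. With that trend removed the BIRC6 difference was 0.16 (adjusted p = 2.9e-03) and the XIAP difference 0.34 (adjusted p = 8.1e-08).

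Of the antagonists, HTRA2 measured 6.44, 5.69 and 6.10 FPKM in WT_12h and 8.17, 7.55 and 8.43 FPKM in Atg7KO_12h, without overlap. It was 1.32-fold higher (log2 0.40 ± 0.09, adjusted p = 1.8e-04). Of its exonic bases 36.9% are also exons of LOXL3 or AUP1 on the opposite strand, and the strand setting of the counting is not given in the sources used here, so the 3 genes may share reads. In this comparison LOXL3 was higher by 0.33 on the log2 scale (adjusted p = 9.2e-03), and the AUP1 value was 0.04 (adjusted p = 0.48).

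DIABLO rested on 37 to 54 reads per library in WT_12h and 38 to 50 in Atg7KO_12h, or 0.418, 0.518 and 0.318 against 0.397, 0.341 and 0.425 FPKM. The groups overlapped, and the log2 difference of -0.11 had a 95% interval from -0.57 to 0.36 (adjusted p = 0.70). The row used, ENSG00000184047, shares 30.4% of its exonic bases with the other DIABLO model, B3GNT4 or a read-through gene, and the other model shares 85.4%. On the same strand the shares were 29.6% and 85.3%, so few bases were shared with the opposite strand alone. The second DIABLO row held 0 to 6 reads in any library. In this comparison B3GNT4 was at -2.67 on the log2 scale (adjusted p = 5.0e-13), and its responses differed by -2.64 in the interaction (5.2e-04). How reads on shared bases were assigned is not given in the sources used here, and the part of this in the low DIABLO level was not tested. XAF1 had 0 reads in all 6 wild type libraries, 0, 2 and 0 in Atg7KO_0h and 3, 1 and 1 in Atg7KO_12h. A count of 0 allows up to 3 reads per library, so no XAF1 difference was detectable at this depth.

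In all, 5 of the 6 members tested between Atg7KO_12h and WT_12h passed an adjusted p of 0.01, 3 higher and 2 lower, where 55.6% of all tested genes did (27.7% higher and 27.9% lower). The members' median log2 change was 0.15, against -0.002 over all genes. When the spread was estimated from all 12 libraries, with Atg7KO_0h among them, 2 members kept the call, XIAP (adjusted p = 2.4e-04) and BIRC2 (adjusted p = 7.9e-05). In that fit 4876 of 16856 genes were called, so fewer genes passed as a whole.

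**Figure D2:**
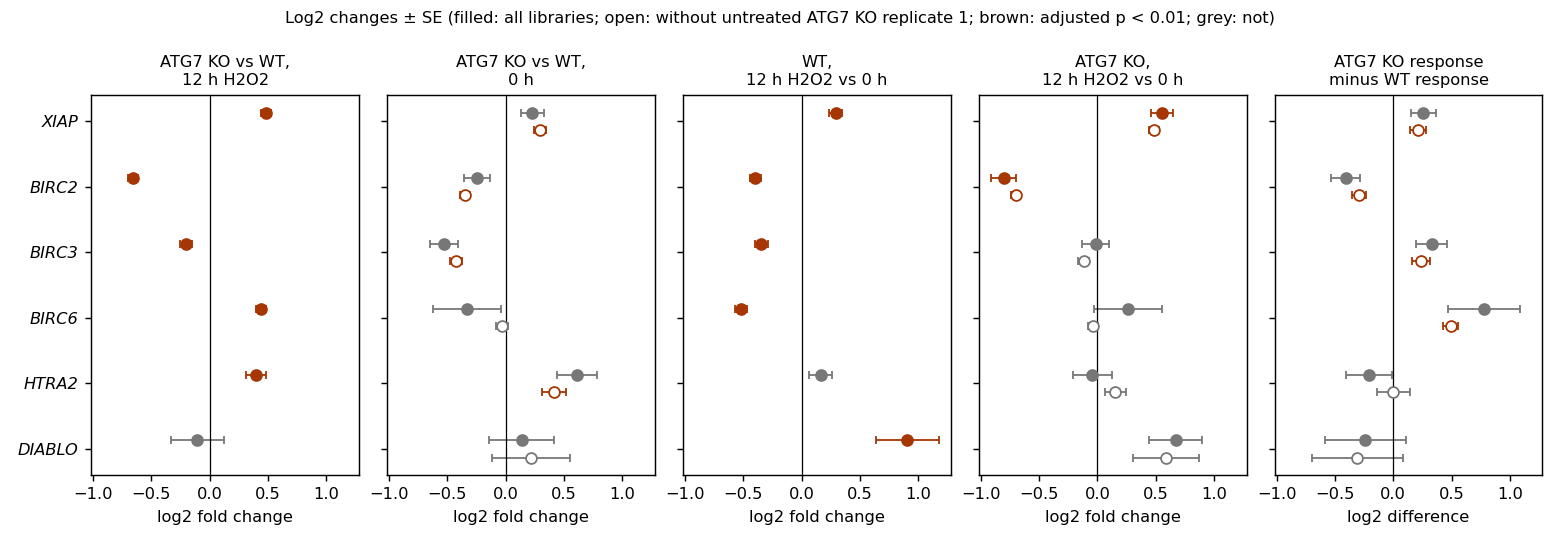
Log2 changes (x axis) with SE of the 6 tested members in the 4 group comparisons and in the difference of responses, with all libraries (filled) and without Atg7KO_0h replicate 1 (open). In Atg7KO_12h against WT_12h BIRC2 is at -0.66 and XIAP at 0.48, and the panels share libraries, so they are not independent of each other.

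Before H2O2 the same question was asked of Atg7KO_0h against WT_0h. None of the 6 tested members passed edgeR's test there, where 7.7% of all genes did. An unadjusted p under 0.05 was reached by 3 members and 32.9% of all genes, and DESeq2 called 1 member and 16.4% of all genes. XIAP measured 10.2, 10.2 and 9.55 FPKM in WT_0h and 10.8, 12.1 and 12.2 FPKM in Atg7KO_0h. BIRC3 measured 17.1, 15.4 and 15.9 FPKM in WT_0h and 9.62, 11.9 and 12.0 FPKM in Atg7KO_0h. The groups did not overlap for either gene, XIAP lying higher and BIRC3 lower in Atg7KO_0h. The log2 values were 0.23 for XIAP (adjusted p = 0.15) and -0.53 for BIRC3 (adjusted p = 0.022).

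BIRC2 measured 59.4, 55.4 and 57.7 FPKM in WT_0h and 55.9, 44.3 and 45.7 FPKM in Atg7KO_0h. BIRC6 measured 7.77, 7.67 and 7.5 FPKM in WT_0h and 3.31, 7.67 and 7.22 FPKM in Atg7KO_0h. In both genes replicate 1, the library that stood apart, was the one away from its group: for BIRC2 it lay among the WT_0h libraries, and for BIRC6 it was the lowest of all 12. HTRA2 measured 4.88, 5.47 and 5.87 FPKM in WT_0h and 10.5, 7.05 and 7.31 FPKM in Atg7KO_0h, where the same library was the highest of the 12. LOXL3, which overlaps HTRA2, was higher by 1.0 on the log2 scale in that comparison (adjusted p = 3.4e-03), and by 1.06 without that library (3.0e-21). AUP1, which also overlaps HTRA2, was at 0.43 (adjusted p = 0.041), and at 0.33 without that library (1.1e-07).

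Without Atg7KO_0h replicate 1, 4 of the 6 members were called between the untreated groups, where 36.2% of all genes were. XIAP was higher by 0.29 (adjusted p = 3.1e-07) and HTRA2 by 0.42 (adjusted p = 2.0e-04) on the log2 scale. BIRC2 was lower (-0.35, adjusted p = 3.2e-12), as was BIRC3 (-0.43, adjusted p = 1.3e-13). BIRC6 had a log2 value of -0.03, with a 95% interval from -0.13 to 0.06 (adjusted p = 0.63). For DIABLO, at 24 to 37 reads per Atg7KO_0h library, the log2 value was 0.14 with all libraries (adjusted p = 0.76).

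The response of wild type cells was read from WT_12h against WT_0h, where 5 of 6 tested members changed and 61.0% of all genes did. BIRC2 fell from 57.5 ± 2.0 to 43.9 ± 2.23 FPKM (SD, n = 3), a log2 change of -0.40 (adjusted p = 1.4e-10). BIRC3 fell from 16.1 ± 0.862 to 12.7 ± 1.04 FPKM (log2 -0.34, adjusted p = 3.0e-07). BIRC6 fell from 7.65 ± 0.134 to 5.36 ± 0.339 FPKM (log2 -0.52, adjusted p = 1.0e-12). None of these 3 overlapped between the groups, a trait whose share over all genes was not counted. Both cIAP genes moved the same way. With the spread taken from all 12 libraries BIRC6 lost its call (adjusted p = 0.061).

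XIAP rose in WT_12h, from 9.99 ± 0.377 to 12.3 ± 0.716 FPKM (log2 0.29, adjusted p = 3.1e-06), also without overlap. Over all genes the log2 change here fell by 0.137 per doubling of length. With that trend removed XIAP was at 0.51, BIRC3 at -0.19 and BIRC6 at -0.16 (adjusted p = 4.7e-03), while BIRC2, whose length of 4532 bases is close to the median, was at -0.37.

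DIABLO rose from 0.220, 0.265 and 0.175 FPKM in WT_0h to 0.418, 0.518 and 0.318 FPKM in WT_12h, which is 21 to 33 reads against 37 to 54. The log2 change was 0.91 (adjusted p = 2.5e-03), with a 95% interval from 0.37 to 1.45, and no library of one group overlapped the other. Single libraries decided the call, which was lost without WT_0h replicate 1 or replicate 3 or without WT_12h replicate 1 or replicate 2 (adjusted p between 0.010 and 0.035), and in limma on the FPKM values (0.015 and 0.017). B3GNT4, which shares bases with DIABLO, rose by 2.13 on the log2 scale in that comparison (adjusted p = 5.2e-11). HTRA2 had a log2 value of 0.17, with a 95% interval from -0.03 to 0.36 (adjusted p = 0.13), and its groups overlapped.

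In the cells labelled Atg7KO, 2 of 6 members changed between 0 h and 12 h, beside 26.0% of all genes. XIAP rose from 11.7 ± 0.793 to 17.2 ± 0.763 FPKM (log2 0.55, adjusted p = 3.4e-03). BIRC2 fell from 48.6 ± 6.35 to 27.9 ± 0.359 FPKM (log2 -0.80, adjusted p = 1.3e-03). Both were without overlap and in the direction of the wild type response. The XIAP call was lost in each fit that left out a library other than Atg7KO_0h replicate 1 (adjusted p between 0.011 and 0.024), and the BIRC2 call without any one Atg7KO_12h library (0.012 to 0.013). Without Atg7KO_0h replicate 1 the values were 0.49 for XIAP (adjusted p = 8.5e-25) and -0.70 for BIRC2 (adjusted p = 2.5e-48), and 2 members were again called beside 58.4% of all genes.

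The other 4 members did not pass in these cells. BIRC3 was at -0.02 on the log2 scale (95% interval -0.28 to 0.25, adjusted p = 0.92), and at -0.12 without replicate 1 of Atg7KO_0h (adjusted p = 0.025). BIRC6 was at 0.26 (interval -0.43 to 0.95, adjusted p = 0.50), and at -0.04 without that library. HTRA2 was at -0.04 (interval -0.43 to 0.34) and DIABLO at 0.67 (interval 0.14 to 1.2, adjusted p = 0.048). DIABLO lay at 0.215, 0.215 and 0.295 FPKM in Atg7KO_0h and at 0.397, 0.341 and 0.425 FPKM in Atg7KO_12h, without overlap.

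Whether the H2O2 response itself differed between the genotypes was tested as an interaction over all 12 libraries. None of the 6 members passed edgeR's test, where 14.0% of all genes did. An unadjusted p under 0.05 was reached by 4 members and 42.6% of all genes, and DESeq2 called 1 member and 22.0% of all genes. The differences, response in Atg7KO minus response in WT on the log2 scale, were -0.41 for BIRC2 (adjusted p = 0.026), 0.26 for XIAP (0.084), 0.33 for BIRC3 (0.078) and 0.78 for BIRC6 (0.072), with HTRA2 at -0.21 and DIABLO at -0.24. Without Atg7KO_0h replicate 1, 4 members were called, beside 34.1% of all genes: BIRC2 at -0.29 (adjusted p = 4.9e-05), XIAP at 0.21 (9.9e-03), BIRC3 at 0.24 (6.0e-03) and BIRC6 at 0.49 (1.6e-09).

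Of these 4, the values of 3 moved with a correction for gene length. The difference of responses rose by 0.160 per doubling of length over all genes. With the trend removed and the library left out, BIRC2 alone of the 6 was called, at -0.29 (adjusted p = 6.7e-05), and XIAP was at 0.02 (adjusted p = 0.85), BIRC3 at 0.10 (0.29) and BIRC6 at 0.16 (0.058). BIRC2, at 4532 bases, lies near the median length of 4410.5 in this fit, so the correction could hardly move it and its steady value there is no test of the BIRC2 difference.

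**Figure D3:**
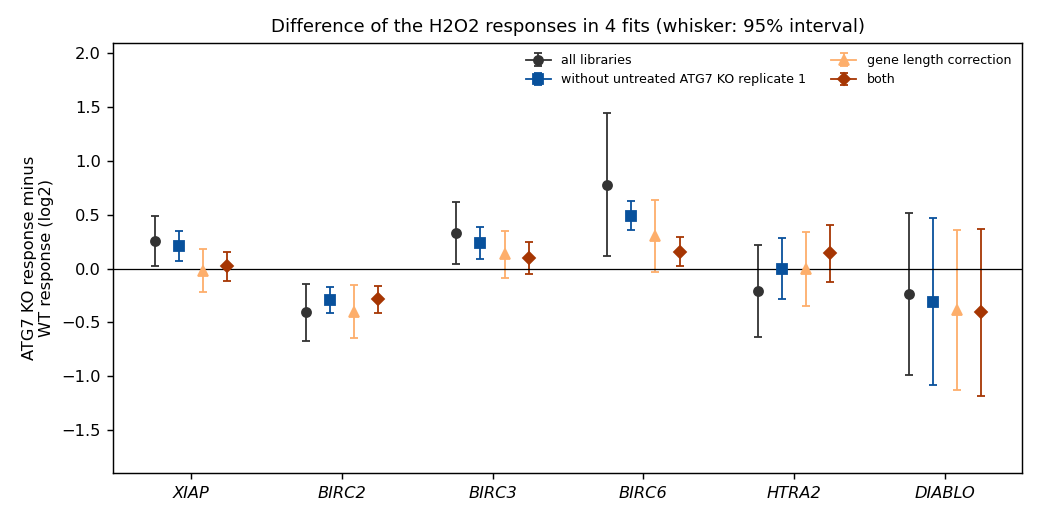
Difference between the H2O2 response of cells labelled Atg7KO and that of WT cells (y axis, log2) for each tested member in 4 fits, with 95% intervals. BIRC2, a gene of near-median length, lies between -0.41 and -0.29, whereas XIAP moves from 0.26 to near 0 and BIRC6 from 0.78 to 0.16.

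The companion genes of the pathway were counted from lists of known partners, of which 32 genes could be tested in at least 1 comparison. The lists were chosen with earlier results of these data known, so their counts beside all genes are no independent test. Of the other IAP genes only BIRC5 was expressed, the gene of survivin, a protein of dividing cells that sits at centromeres and the midbody. BIRC7 and BIRC8 had at most 2 reads and NAIP at most 5 reads in a library. BIRC5 measured 46.2 ± 1.49 FPKM in WT_0h, 27.3 ± 1.04 in WT_12h, 59.7 ± 13.5 in Atg7KO_0h and 12.7 ± 0.414 in Atg7KO_12h (SD, n = 3). It fell in both genotypes, by 0.77 on the log2 scale in WT (adjusted p = 4.2e-19) and by 2.24 in cells labelled Atg7KO (9.5e-05), and the difference of -1.47 passed the test (1.3e-04). With Atg7KO_0h replicate 1 left out it fell by 2.05 in cells labelled Atg7KO and the difference was -1.27. In Atg7KO_12h against WT_12h it was at -1.11 on the log2 scale (adjusted p = 2.0e-18).

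Of the apoptosome, on which XIAP acts, 3 genes were followed. In WT_12h against WT_0h 2 rose and 1 fell: APAF1, its scaffold, rose by 1.80 and CYCS (cytochrome c) by 0.74 on the log2 scale, while CASP9, the initiator caspase, was at -0.54 (adjusted p = 2.6e-04). On FPKM with limma the CASP9 value in WT just missed the threshold (0.011 to 0.012). In the cells labelled Atg7KO 1 rose and 1 fell, APAF1 by 1.84, with CASP9 at -0.93, a call that was lost without Atg7KO_12h replicate 2 or replicate 3 (adjusted p = 0.011). When Atg7KO_0h replicate 1 was left out, 2 rose and 1 fell in the cells labelled Atg7KO, beside 58.4% of all genes called, with APAF1 at 1.70, CYCS at 0.75 and CASP9 at -0.99. The median change of the 3 genes was 0.74 in WT and, in Atg7KO, 0.43 with all libraries and 0.75 without that one, against -0.005, -0.03 and -0.003 over all genes, so the gap between the genotypes rested on 1 library. Between Atg7KO_12h and WT_12h their adjusted p was 0.040 or more, and 0.15 or more for the interaction, in edgeR, and none was called for the interaction without Atg7KO_0h replicate 1 (0.052 or more).

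Of 9 partners of cIAP1 and cIAP2, 2 were higher, 5 lower and 2 not called in Atg7KO_12h against WT_12h, beside 27.7% of all genes higher and 27.9% lower, and their median was -0.29. TRAF1, an NF-kB-induced adaptor that binds both cIAPs, was at -1.66 (adjusted p = 8.9e-13), MAP3K14, the kinase they degrade, at -0.52 (1.4e-10), CFLAR, the caspase-8 inhibitor, at -0.37 (5.2e-07) and RIPK1, their ubiquitination target, at 0.21 (1.4e-03). The RIPK1 call was lost without Atg7KO_12h replicate 3 (0.021) and in limma on FPKM (0.018 and 0.019), and with the spread from all 12 libraries RIPK1 (0.053) and CFLAR (0.015) both lost theirs. In wild type cells under H2O2 3 rose and 1 fell, beside 61.0% of all genes called, TRAF1 by 2.17, CFLAR by 0.49 and MAP3K14 by 0.26, the last of which lost its call with all 12 libraries (0.11). In cells labelled Atg7KO 1 rose and 1 fell, beside 26.0% of all genes, TRAF1 by 1.10, and the difference of the TRAF1 responses was -1.07 (adjusted p = 1.1e-04). In these cells 3 rose and 2 fell without Atg7KO_0h replicate 1, beside 58.4%, and the responses of 4 of 9 differed, beside 34.1%, with TRAF1 at -1.13 and CFLAR at -0.49.

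Among 8 tested handlers of IAPs and their antagonists, 4 were higher and 2 lower in Atg7KO_12h than in WT_12h, beside 55.6% of all genes called. UBA6, the ubiquitin-activating enzyme that charges BIRC6, was at 0.53 (adjusted p = 1.1e-12), AREL1, a ligase for the released antagonists, at 0.55 (4.2e-13), and UBE2Z, a conjugating enzyme that UBA6 charges, at 0.24 (6.8e-08). PARL, the mitochondrial protease that acts in the maturation of Smac, was at -0.82 (3.7e-04), with a range from -1.01 to -0.55 when 1 library was left out. PARL lost its call in limma on FPKM (0.011 and 0.013) and with the spread from all 12 libraries (0.053). UBA6 rose by 0.58 in the cells labelled Atg7KO (1.6e-03), and its responses differed by 0.71 between the genotypes (6.7e-04). RNF41, a ligase reported to act on BIRC6, was at -0.54 in Atg7KO_0h against WT_0h (6.8e-03) and at -0.49 in WT_12h against WT_0h (1.4e-08), and its responses differed by 0.47 (5.1e-03). The RNF41 call between the untreated groups was lost in each fit without a library other than Atg7KO_0h replicate 1 (0.024 to 0.052) and its interaction in 8 of 12 such fits (0.010 to 0.017). UBA6 lost its call in Atg7KO_12h against Atg7KO_0h without any one Atg7KO_12h library (0.012 to 0.015), and with the length correction its responses differed by 0.32 (0.10). UBE2Z was at -0.22 in the wild type response (3.9e-06). In that response 2 of the 8 rose and 3 fell, beside 61.0% of all genes called, and in the cells labelled Atg7KO 1 rose and 1 fell, beside 26.0%. Of the 8, 3 rose and 1 fell in these cells without Atg7KO_0h replicate 1, beside 58.4%, UBA6 by 0.55 (5.6e-35), and the responses of 5 of 8 differed, beside 34.1%, with UBA6 at 0.70 and RNF41 at 0.45. The RNF41 value between the untreated groups was then -0.51 (3.3e-10).

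BIRC3 is itself a textbook NF-kB target, and so are the 6 genes of the NF-kB list. All 6 rose in WT_12h against WT_0h, where 61.0% of all genes were called, with a median of 1.27, TNFAIP3 (the deubiquitinase A20) by 3.48 and NFKBIA (the inhibitor IkBa) by 1.56, while BIRC3 fell by 0.34. In the cells labelled Atg7KO 2 of 6 rose and 0 fell, beside 26.0% of all genes called, TNFAIP3 by 1.84. With Atg7KO_0h replicate 1 left out, 3 rose and 1 fell, beside 58.4%, with TNFAIP3 at 1.73 and NFKBIA at -0.25 (3.6e-11). The untreated libraries labelled Atg7KO stood higher for 3 of 6, beside 7.7% of all genes called, and for 5 of 6 without replicate 1, beside 36.2%. NFKBIA was higher there by 1.34 (adjusted p = 2.0e-03, and 0.018 to 0.020 without any one WT_0h library), or by 1.15 without Atg7KO_0h replicate 1, with BIRC3 at -0.53. In Atg7KO_12h against WT_12h 4 of 6 were lower and 0 higher, beside 27.9% of all genes lower, NFKBIA at -0.67 (8.4e-16) and TNFAIP3 at -0.53 (6.6e-12). The responses of 5 of 6 differed between the genotypes in edgeR, beside 14.0% of all genes, with NFKBIA at -2.01 (2.1e-05) and TNFAIP3 at -1.64 (1.9e-05), both the lower in Atg7KO, and BIRC3 at 0.33 did not pass. The responses of all 6 differed without Atg7KO_0h replicate 1, beside 34.1%, with NFKBIA at -1.81 and TNFAIP3 at -1.74.

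XAF1 belongs with the interferon-induced genes. In WT_12h against WT_0h 2 of 4 tested rose and 2 fell, beside 61.0% of all genes called, and in the cells labelled Atg7KO 1 of 5 rose and 2 fell, beside 26.0%, or 2 of 6 rose and 2 fell without Atg7KO_0h replicate 1, beside 58.4%. Between Atg7KO_12h and WT_12h 2 of 5 were higher and 1 lower, beside 55.6%. IRF1, a transcription factor of this group, rose by 2.16 in WT (5.6e-31) and by 0.84 in cells labelled Atg7KO (5.6e-04) and was at -0.90 between the treated groups (1.0e-13), the responses differing by -1.31 (3.0e-05). Its rise in cells labelled Atg7KO without Atg7KO_0h replicate 1 was 0.86 and the difference -1.28. XAF1 stayed at 3 reads or fewer in every library.

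**Figure D4:**
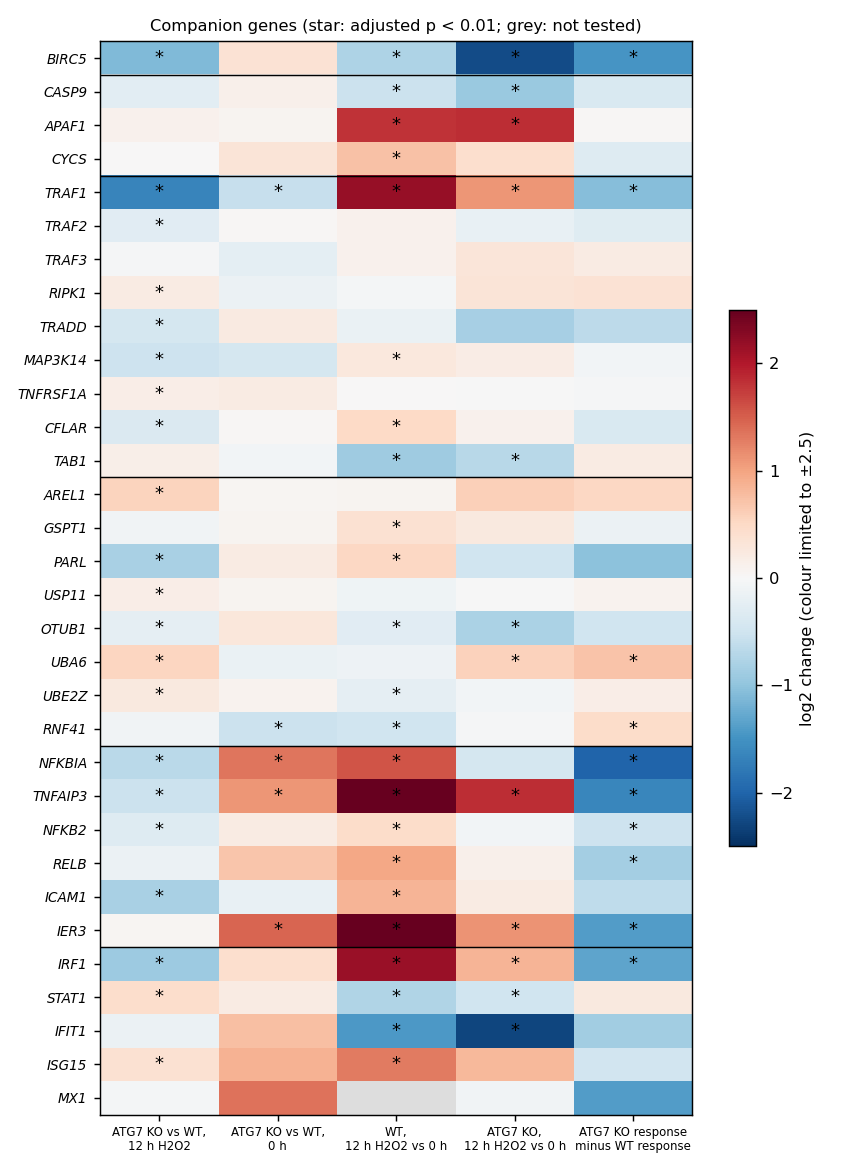
Log2 change (colour, limited to 2.5 in either direction) of the companion genes (rows, grouped by list) in the 4 group comparisons and the difference of responses (columns), with a star for an adjusted p under 0.01. TNFAIP3 at 3.48 and APAF1 at 1.80 stand out in the wild type response, and TRAF1 at -1.66 and BIRC5 at -1.11 in Atg7KO_12h against WT_12h.

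The genes around the members on the chromosomes were counted in Atg7KO_12h against WT_12h, where 27.7% of all genes were higher and 27.9% lower. Within 1 Mb of BIRC2 and BIRC3, 10 other genes were tested, of which 3 were higher and 3 lower. TMEM123, the nearest tested neighbour downstream of BIRC2 at 49.1 kb, was at -0.36 (adjusted p = 2.5e-10), and YAP1, the transcriptional co-activator 237 kb upstream, at 0.64 (7.9e-16). Around XIAP 3 genes were tested and were higher, the cohesin subunit STAG2 by 0.51, the RNA export factor THOC2 by 0.24 and the signalling adaptor SH2D1A by 2.24. In WT_12h against WT_0h 2 genes were tested there, and SH2D1A was not among them. It thus passed the count filter through the Atg7KO_12h libraries, so its direction was fixed by the filter. In WT_12h against WT_0h, where XIAP rose, THOC2 was at -0.53 (6.2e-14) and STAG2 at -0.06 (adjusted p = 0.21), so the direction was shared in the first comparison and not in the second. Around BIRC6 4 of 10 were higher and 2 lower, around HTRA2 9 of 36 and 8, and around DIABLO 19 of 37 and 7. Around XAF1 6 of 51 were higher and 23 lower, with a median of -0.30.

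Likeness of pattern was taken as Pearson's r of log2 levels over the 12 libraries, which share 4 groups, among 9893 other genes (9894 for DIABLO). The genes searched were protein-coding, with a mean FPKM above 1 in all 4 groups. Atg7KO_0h replicate 1 was included and r was not computed without it, so a high r may rest partly on that library. DIMT1 (r = 0.995) and HMG20B (0.990) were most like BIRC2. TMEM8A (0.983) and CDCP1 (0.983) were most like XIAP, and ZNF431 (0.969) and ZNF148 (0.969) most like BIRC3. CDK12 (0.990) and CBL (0.988) were most like BIRC6, MPP1 (0.960) and CAPG (0.958) most like HTRA2, and GLIS2 (0.941) and ARHGEF2 (0.930) most like DIABLO.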

How the data were processed

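HLE-B3 RNA was sequenced from libraries made with a NEBNext Ultra kit, 3 biological replicates in each of 4 groups. The submitters' processing notes name HISAT2 2.0.5 and featureCounts 1.5.0-p3 on GRCh38. The deposited raw counts are whole reads per gene, and the authors scaled them by gene length and library size into the deposited FPKM. The strand setting and the treatment of reads on overlapping genes or several places are not given in the sources used here.

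Members and companion lists were chosen with earlier results of these data known. Named were all members, companions as examples of each list, and the 2 genes most like each member. Counts were fitted in edgeR 4.0.16 (R 4.3.3) with TMM scaling, filterByExpr at a minimum count of 10 and the robust quasi-likelihood test, each group comparison on its own 3 against 3 libraries and the interaction on all 12. A gene was called at a Benjamini-Hochberg adjusted p under 0.01 over all genes tested, and p-values measure the spread between these libraries. XAF1 and the second DIABLO row did not pass the filter. The comparisons share libraries. Alternatives were DESeq2 1.42.0, limma 3.58.1 on log2(FPKM + 1) and log2(FPKM + 0.1), other scalings and filters, all 12 libraries, a replicate block, a lowess correction for gene length (span 0.3) and leaving out each library. After seeing the data, the length correction without Atg7KO_0h replicate 1 was added. The test was tried on simulated data. Intervals cover 95%. All 58735 gene identifiers were found in GENCODE 29, and 58724 had the same start and end. Promoter windows were matched by symbol for all 7 members, and the window nearest the annotated gene start was used. Some genes of the companion lists are not reported here.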

Additional observations from a re-analysis of the deposited data

Results flagged for a closer look

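Between the genotypes, 10 companion genes had responses to H2O2 that differed in edgeR's quasi-likelihood interaction test with Benjamini-Hochberg adjustment, beside 14.0% of all genes. They were 5 of 6 NF-kB-induced genes, 2 of 8 handlers, 1 of 9 cIAP partners, 1 of 5 interferon-induced genes and BIRC5. These lists were chosen with earlier results of these data known, so the counts are no test of the lists. None of the 3 apoptosome genes was among them. Values are the response in Atg7KO minus that in WT on the log2 scale. NFKBIA differed by -2.01 (adjusted p = 2.1e-05), with mean levels of 52.2 and 155 FPKM in WT at 0 h and 12 h and 133 and 97.8 FPKM in Atg7KO. TNFAIP3 differed by -1.64 (1.9e-05), BIRC5 by -1.47 (1.3e-04), IRF1 by -1.31 (3.0e-05) and TRAF1 by -1.07 (1.1e-04). Of the other NF-kB-induced genes, IER3 differed by -1.40 (4.6e-04), RELB by -0.84 (1.6e-03) and NFKB2 by -0.52 (2.4e-03), the last of which lost its call in 4 of 12 fits without 1 library (0.010 to 0.011). UBA6 differed by 0.71 (6.7e-04), and by 0.32 with the length correction, where its call was lost (0.10). RNF41 differed by 0.47 (5.1e-03) and lost its call in 8 of 12 fits without 1 library. Without Atg7KO_0h replicate 1 all 10 were again called, beside 34.1% of all genes. Groups held 3 libraries, so no test for a single outlying library was run on the levels.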

How the results depend on the processing

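The replicate numbers did not pair the libraries (correlations of same-numbered deviations between -0.04 and 0.10). With a replicate block, 1 member was called in Atg7KO_12h against Atg7KO_0h, XIAP losing its call (adjusted p = 0.011), and 499 genes instead of 1182 in Atg7KO_0h against WT_0h. In Atg7KO_12h against WT_12h a fit over all 12 libraries called 2 members and 4876 of 16856 genes, instead of 8847 of 15909. In Atg7KO_0h against WT_0h DESeq2 called 1 member and 2511 genes, the length correction 1 and 1803, all 12 libraries 2 and 3154, and the length correction without Atg7KO_0h replicate 1 called 4 and 5732. In Atg7KO_12h against Atg7KO_0h all 12 libraries called 6528 instead of 4025 genes and the last setting 9367. For the interaction DESeq2 called 1 member and 3703 instead of 2366 genes, no filter on low counts 1 and 4054, and the last setting 1 and 5323. Leaving out 1 library, the members called ranged from 4 to 5, 0 to 4, 4 to 5, 0 to 2 and 0 to 4 in Atg7KO_12h against WT_12h, Atg7KO_0h against WT_0h, WT_12h against WT_0h, Atg7KO_12h against Atg7KO_0h and the interaction, and the genes called from 7993 to 8941, 287 to 5734, 9022 to 9779, 1767 to 9341 and 1332 to 5974. The upper ends in the comparisons that use Atg7KO_0h are those without its replicate 1.

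Signs turned in values that had not passed the test. With the length correction HTRA2 was at 0.080 in Atg7KO_12h against Atg7KO_0h and XIAP at -0.022 in the interaction. With that correction and Atg7KO_0h replicate 1 left out, BIRC6 was at 0.013 in Atg7KO_0h against WT_0h and at -0.0024 in Atg7KO_12h against Atg7KO_0h, and HTRA2 at 0.19 there and 0.14 in the interaction. Leaving out 1 library, DIABLO ranged from -0.27 to 0.067 in Atg7KO_12h against WT_12h and from -0.037 to 0.30 in Atg7KO_0h against WT_0h. In Atg7KO_12h against Atg7KO_0h BIRC3 ranged from -0.12 to 0.042, BIRC6 from -0.039 to 0.46 and HTRA2 from -0.15 to 0.15, and in the interaction HTRA2 ranged from -0.30 to 0.00026. The cause was not tested. Of the members' values 286 of 312 kept sign and side of the threshold under the other alternatives and 185 of 216 when a library was left out, and of the companions' 420 of 439 and 292 of 318. DIABLO and XAF1 rest on few reads per library, and the part of shared bases in the low DIABLO level was not tested.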
